A study of Mus musculus with 6 samples.

Results

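The genes that carry the transforming growth factor beta (TGF-beta) signal were examined in mouse embryonic fibroblasts with and without Klf4. The set held the ligands Tgfb1, Tgfb2 and Tgfb3, the receptors Tgfbr1, Tgfbr2 and Tgfbr3, the signal transducer Smad3, and Smad7, Skil and Pmepa1, which the pathway induces and which act back on it. Members were all probes of the Illumina bead array that carried one of these 10 gene symbols, out of 32291 gene symbols on the array. They numbered 19 probes, of which 2, deposited under the older symbol Tmepai, belong to Pmepa1. Tgfb1, Tgfb3, Smad3 and Smad7 were read by 1 probe each, the other 6 genes by 2 to 4.

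Total RNA came from 3 samples that were wild type at Klf4 (Klf4 +/+) and 3 that lacked it (Klf4 -/-, called Klf4-null here), each on 1 array. Both groups were of strain C57Bl/6 with a labelled age of 13 days, and were grown in medium with fetal bovine serum, which can itself hold TGF-beta. Replicates are numbered, but nothing in the labels says that they came from separate embryos or cultures, so the spread behind each p-value is that of these samples alone and may be technical. A difference between cultures cannot be told apart from the genotype.

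TGF-beta is secreted in a latent form held in the matrix and, once freed, binds the type II receptor Tgfbr2, which recruits and phosphorylates the type I receptor Tgfbr1. The type I receptor then phosphorylates Smad2 and Smad3, which join Smad4 and enter the nucleus. In fibroblasts the pathway is known for driving matrix synthesis and the contractile myofibroblast state, and for switching on its own inhibitors.

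For orientation, the 250 bases upstream of the annotated start are shown for the paired receptors Tgfbr2 and Tgfbr1, of which the first rose and the second did not pass the test, and for the ligand Tgfb1. They were taken from RefSeq (build GRCm38.p6). The Tgfbr2 stretch is chr9:116175364-116175613 on the minus strand, the Tgfbr1 stretch is chr4:47352972-47353221 on the plus strand, and the Tgfb1 stretch is chr7:25686752-25687001 on the plus strand. Capitals mark CACCC, a box that Kruppel-like factors such as Klf4 can bind, and GGGCGG, a GC box, each on either strand. On the opposite strand the first reads GGGTG. The GC box there reads CCGCCC. Marked matches did not overlap in these stretches.
Tgfbr2: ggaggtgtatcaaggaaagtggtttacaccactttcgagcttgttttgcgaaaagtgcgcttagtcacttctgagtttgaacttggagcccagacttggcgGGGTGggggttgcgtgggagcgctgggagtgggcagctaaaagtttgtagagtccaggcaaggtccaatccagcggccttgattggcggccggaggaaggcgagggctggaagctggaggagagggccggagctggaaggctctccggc
Tgfbr1: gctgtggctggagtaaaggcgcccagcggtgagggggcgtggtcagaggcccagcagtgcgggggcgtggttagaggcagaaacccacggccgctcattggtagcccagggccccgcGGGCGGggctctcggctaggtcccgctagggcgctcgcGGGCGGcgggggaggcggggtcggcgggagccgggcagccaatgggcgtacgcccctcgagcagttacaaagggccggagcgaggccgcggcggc
Tgfb1: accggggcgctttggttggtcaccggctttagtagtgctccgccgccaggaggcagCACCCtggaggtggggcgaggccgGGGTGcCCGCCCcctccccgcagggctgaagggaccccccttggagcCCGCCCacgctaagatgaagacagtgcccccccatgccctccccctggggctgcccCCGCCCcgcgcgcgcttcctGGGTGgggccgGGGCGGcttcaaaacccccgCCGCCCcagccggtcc

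Motifs were counted in RefSeq windows of 300 bases, which add the 50 bases after the start, for 5 members. CACCC stood once in the Tgfbr2 window, 3 times in that of Tgfb1, once each in those of Tgfb2 and Smad3, and 0 times in the first of the 2 Tgfbr1 windows. The second Tgfbr1 window held 2. Of all 32851 promoter windows, 57.5% held this box. GGGCGG was counted 6 times for Tgfb1 and 2 times each for Smad3 and the first Tgfbr1 window. It was absent for Tgfbr2, Tgfb2 and the second Tgfbr1 window. Of all windows, 35.7% held at least 1. The SMAD half-site CAGAC, counted on both strands, stood once for Tgfbr2, once in the second Tgfbr1 window and 2 times for Tgfb2. The windows of Tgfb1 and Smad3 and the first Tgfbr1 window lacked it, and 49.6% of all windows held it. The palindrome GTCTAGAC, found in 0.213% of windows, was in none of the 6 member windows. GC content was 59% for Tgfbr2, 54.3% for Tgfb2, 77% for Tgfb1 and 67.7% for Smad3. The first Tgfbr1 window had 74.7% and the second 52%. A match of letters is a description, not a binding site. No window was counted for Tgfb3, Tgfbr3, Smad7, Skil and Pmepa1.

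Values are the authors' normalized probe intensities, on a linear scale, with no count behind them. Background was estimated on each array, with a floor at intensities of 54.0 to 54.2, and testing required a value over it on 3 or more of the 6 arrays. Changes on the log2 scale take wild type as the base (Klf4-null minus wild type) and come from a limma fit over all 21825 tested probes, with adjusted p-values over all of them and a threshold of 0.05. Each gene is represented by its tested probe of highest mean unless a probe is named. Arrays correlated at 0.995 to 0.996 within wild type, 0.996 to 0.998 within Klf4-null and 0.947 to 0.951 between groups. Of the 3 probes of Klf4, ILMN_1241903 fell at least 1.83-fold and ILMN_1221264 at least 1.27-fold, both to background on every Klf4-null array. The brightest, ILMN_2593684, rose 1.69-fold (adjusted p = 2.4e-05 by limma). The sources used here do not say which of these probes lie in the disrupted part.

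As a check of cell identity, 12 of 13 fibroblast markers exceeded background, and Lum was at background throughout. Of these, Col1a1, Col3a1, Twist1 and Dcn rose, while Thy1 (to background), Pdgfra (988 to 551), Prrx1 (571 to 256) and Col1a2 fell. Vim gave 20725 and 20679. Macrophage, epithelial and skeletal muscle markers were mostly at background, including Ptprc, Csf1r, Epcam, Krt8, Myod1 and Des. Cd68 (242 and 265), Cdh1, Cldn4 and Myog were bright enough to be tested, and none of them passed. Of 7 endothelial markers, Pecam1, Tek and Tie1 were at background, Cdh5 (64.6 to 53.7) and Egfl7 (558 to 283) fell, and Kdr (104 to 114) and Vwf did not pass. The list's summed intensity was 903 to 939 in wild type and 619 to 677 in Klf4-null cells, a gap that lay almost wholly in Egfl7. Among neural and glial markers, Nes rose from background (43.8 to 809.98) and Sox10 was at background. Among 5 sex-linked genes Xist rose (70.2 to 260) and Kdm5d fell to background (122 to 43.1). Uty gave 80.1 and 78.0, and neither Ddx3y nor Eif2s3y exceeded background on any array. Sex of the cultures and genotype cannot be told apart, and the part of these markers in the results was not tested.

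Of the 10 genes, Tgfbr2 and Pmepa1 rose most in Klf4-null cells, Tgfb1 and Tgfbr3 rose by less than 1.5-fold, Tgfb2 rose from background by at least 1.37-fold, and Tgfb3, Tgfbr1, Smad3 and Skil did not pass the test. Smad7 was not above background on any array. Thus 5 of 9 tested member genes were called higher and 0 lower, and over all 16213 genes tested 19.3% were called higher and 20.6% lower, or 39.9% in either direction. The groups of these 5 genes did not overlap, as for 22.6% of all genes in this direction, and 2 of the 9 were called with a rise of at least 2-fold, against 3.87% of all genes. Among probes, 13 of 19 were tested, 7 were called higher and 0 lower by limma, with 0 lower also at an unadjusted p under 0.05. Over all probes 19% were called higher, 19.9% lower and 38.9% in either direction. The groups did not overlap for 47.3% of all probes, counting both directions. Tgfb2 entered the test only through its Klf4-null arrays, so it had to differ. The median log2 fold change of the 9 tested genes was 0.41, against -0.03 over all genes. In bulk RNA, a change per cell and a change in the share of cells that express a gene cannot be told apart.

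**Figure D1:**
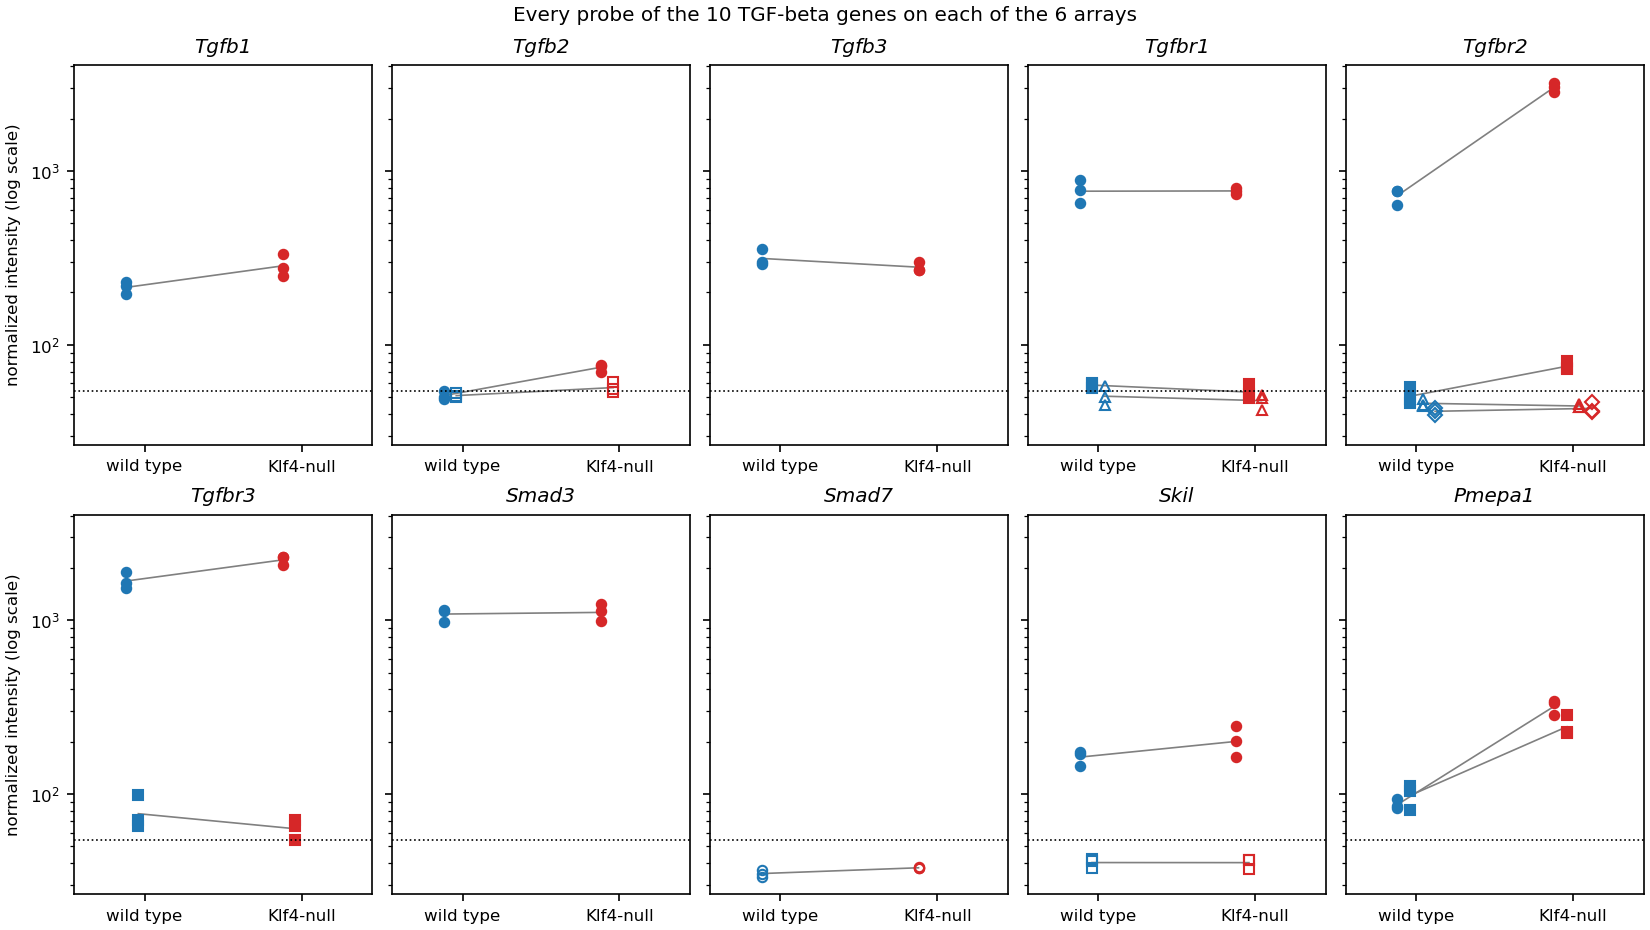
Normalized intensity (log axis) of every probe of the 10 genes in the 3 wild-type (blue) and 3 Klf4-null (red) samples, with 1 marker shape per probe, lines joining the geometric means, open markers for probes not tested and a dotted line at the highest background floor, 54.2. Both Pmepa1 probes and the brightest Tgfbr2 probe lie far higher in Klf4-null samples, while the brightest Tgfbr1 probe and the Smad3 probe overlap between groups.

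Of the 3 receptors, Tgfbr2 and Tgfbr3 rose and Tgfbr1 did not pass the test. Tgfbr2, the type II receptor that binds the ligand first, had intensities of 770, 640 and 764 on the wild-type arrays and 3234, 3059 and 2842 on the Klf4-null arrays on probe ILMN_2760979. Every Klf4-null array stood more than 3-fold above every wild-type array. The means were 725 ± 73.5 (SD, n = 3) and 3045 ± 197, a rise of 4.21-fold (log2 change 2.07, SE 0.09, 95% interval 3.67- to 4.83-fold, adjusted p = 3.7e-10 by limma). By size of rise Tgfbr2 ranked 199 of 16213 genes, and 1.31% of genes were called with a rise of at least 4-fold.

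The other 3 probes of Tgfbr2 were dim. ILMN_1242086 read 48.8, 46.3 and 57.0 in wild type, above background on 1 of 3 arrays, and 80.3, 73.5 and 72.1 in Klf4-null cells. It rose 1.49-fold (log2 change 0.57, SE 0.09, adjusted p = 0.00018 by limma), and its groups did not overlap. ILMN_1215171 and ILMN_2777917 were below background on all 6 arrays, with means of 46.0 and 41.4 in wild type and 44.4 and 43.1 in Klf4-null cells. The size of the rise thus rests on 1 bright probe, with the same direction on the other tested one. The sources used here do not place these probes along the transcript.

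Tgfbr1, the type I receptor kinase that Tgfbr2 activates, read 774, 652 and 890 in wild type and 763, 803 and 740 in Klf4-null cells on its bright probe ILMN_2602711. The Klf4-null values all lay inside the wild-type range. The ratio was 1.00 (log2 change 0.01, SE 0.10, adjusted p = 0.98 by limma), with a 95% interval from 0.859 to 1.17, so a rise as large as that of Tgfbr2 lay outside the interval. The sign of this small value turned when wild-type replicate 2 (-0.11) or Klf4-null replicate 2 (-0.03) was left out. The dimmer probe ILMN_2708966 gave -0.13 on the log2 scale (adjusted p = 0.27) and was above background on 1 of 3 Klf4-null arrays. ILMN_1214505 exceeded background on 1 of 6 arrays and was not tested.

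Tgfbr3, also called betaglycan, is a co-receptor that presents ligand, TGF-beta 2 in particular, to Tgfbr2. Its bright probe ILMN_1244839 read 1640, 1532 and 1895 in wild type and 2073, 2304 and 2315 in Klf4-null cells. The lowest Klf4-null value exceeded the highest wild-type value by a small margin, as it did for 22.3% of all tested probes in this direction. The rise was 1.32-fold (log2 change 0.41, SE 0.09, 95% interval 1.15- to 1.52-fold, adjusted p = 0.003 by limma). It did not pass when the variance of each probe was estimated on its own (adjusted p = 0.0594). The dim probe ILMN_1241609 pointed the other way, at 71.1, 65.4 and 98.3 against 70.8, 65.2 and 54.4, with a log2 fold change of -0.29 (SE 0.14, adjusted p = 0.12). With 1 array left out it ranged from -0.41 (without wild-type replicate 2, adjusted p = 0.0371) to -0.11 (without wild-type replicate 3, adjusted p = 0.487), and it was called lower only in the first of these 6 fits. The rise of Tgfbr3 thus rests on the bright probe.

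**Figure D2:**
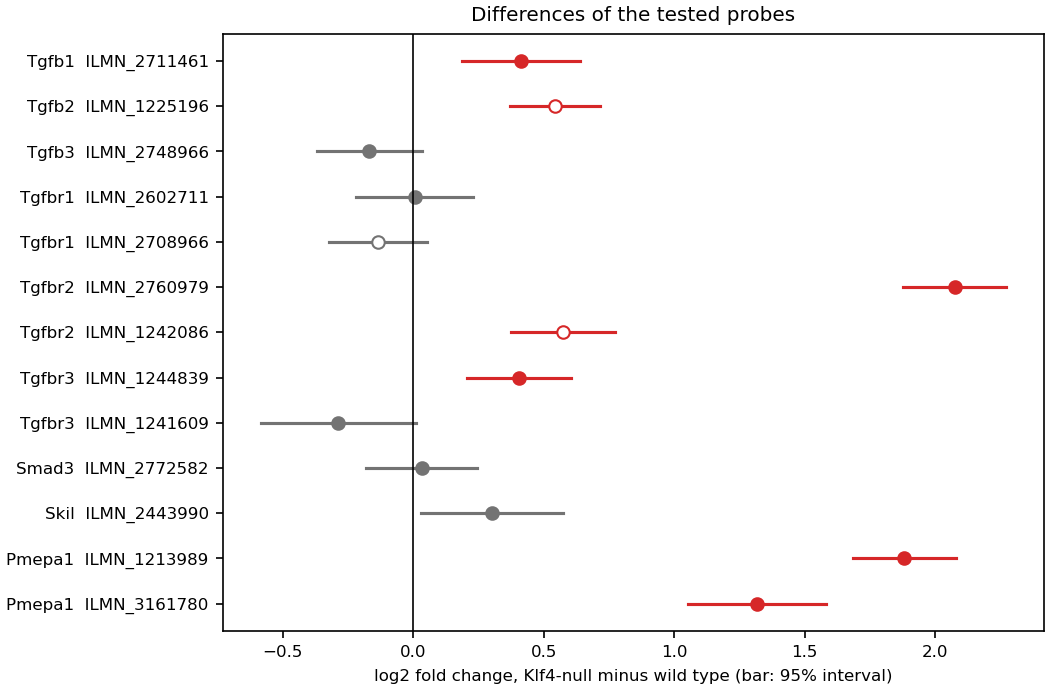
Log2 fold change (Klf4-null minus wild type) of the 13 tested member probes with 95% intervals from limma, red where called higher and grey where the test was not passed, with open markers for probes above background on fewer than 6 arrays. The brightest Tgfbr2 probe and the 2 Pmepa1 probes lie above 1, and no interval of a called probe reaches 0.

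Among the ligands, Tgfb1, the isoform best known for driving fibrosis, read 229, 196 and 218 in wild type and 331, 278 and 250 in Klf4-null cells (probe ILMN_2711461). The groups did not overlap, but the Klf4-null arrays spread widely. The means were 214 ± 17.0 and 286 ± 41.1 (SD, n = 3), a rise of 1.33-fold (log2 change 0.41, SE 0.10, 95% interval 1.14- to 1.56-fold, adjusted p = 0.0059 by limma). The call was lost when the variance of each probe was estimated on its own (adjusted p = 0.103).

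Tgfb2, an isoform with roles in heart and craniofacial development, was near background. Probe ILMN_1225196 read 53.9, 50.3 and 48.7 in wild type, above background on no array, and 75.7, 76.8 and 70.1 in Klf4-null cells, above it on every array. The rise was at least 1.37-fold (fitted log2 change 0.54, SE 0.08, adjusted p = 8.7e-05 by limma). This probe entered the test only through its Klf4-null arrays, so it had to differ. The second probe, ILMN_1241099, read 50.4, 52.6 and 49.8 against 55.9, 61.1 and 53.3. It was above background on 2 Klf4-null arrays and no wild-type array, and was too dim to be tested. Its groups did not overlap, as for 22.3% of all tested probes in this direction. With no filter on dim probes it did not pass (adjusted p = 0.218 by limma).

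Tgfb3, the isoform required for fusion of the palate, read 357, 291 and 299 in wild type and 269, 301 and 269 in Klf4-null cells (probe ILMN_2748966). The groups overlapped. The log2 change was -0.17 (SE 0.09, adjusted p = 0.19 by limma), and the 95% interval of the ratio ran from 0.774 to 1.02. The interval of Tgfb3 did not reach the lower bound of that of Tgfb1. A test of the difference between these ligands was not made.

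Smad3, the receptor-activated SMAD that binds DNA directly, read 1153, 1133 and 981 in wild type and 986, 1234 and 1126 in Klf4-null cells (probe ILMN_2772582). The groups overlapped almost fully. The ratio was 1.02 (log2 change 0.03, SE 0.10, 95% interval 0.883 to 1.18, adjusted p = 0.84 by limma). Its sign turned without wild-type replicate 3 (-0.04) or Klf4-null replicate 2 (-0.04). These are transcript levels, and the phosphorylated form that carries the signal was not measured.

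Of the 3 feedback genes, Pmepa1 rose. Pmepa1, a membrane-anchored protein that binds SMAD2 and SMAD3 and keeps them from the receptor, read 82.6, 84.8 and 93.6 in wild type and 285, 335 and 344 in Klf4-null cells on probe ILMN_1213989. The second probe, ILMN_3161780, read 81.1, 104 and 111 against 285, 223 and 228. The groups were apart on both probes, with a narrower gap on the second. The first rose 3.69-fold (log2 change 1.88, SE 0.09, 95% interval 3.21- to 4.23-fold, adjusted p = 1.1e-09 by limma) and ranked 238 of 16213 genes. The second rose 2.49-fold (log2 change 1.32, SE 0.12, adjusted p = 1e-06 by limma). Both were above background on all 6 arrays, so neither fold is given as a lower bound.

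Skil, which encodes SnoN, a repressor that holds SMAD complexes inactive at target genes, read 170, 175 and 145 in wild type and 164, 201 and 245 in Klf4-null cells (probe ILMN_2443990). Klf4-null replicate 1 lay inside the wild-type range and the other two above it. The ratio was 1.23 (log2 change 0.30, SE 0.13, 95% interval 1.02 to 1.49), with an unadjusted p of 0.0328 that did not pass adjustment (adjusted p = 0.078 by limma). With 1 array left out the value ranged from 0.45 (without Klf4-null replicate 1, adjusted p = 0.00614) to 0.16 (without Klf4-null replicate 3, adjusted p = 0.348), and it passed only in the first of these 6 fits. The second probe was below background on all arrays, with means of 40.3 in both groups.

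Smad7, the inhibitory SMAD that targets the type I receptor for degradation, read 36.7, 33.3 and 34.5 in wild type and 38.1, 37.2 and 37.4 in Klf4-null cells. Every value was below the floor, so no fold is given, and its transcript was not detectable with this probe. The 3 feedback genes therefore comprised 1 that rose on both probes, 1 that did not pass and 1 below background.

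**Figure D3:**
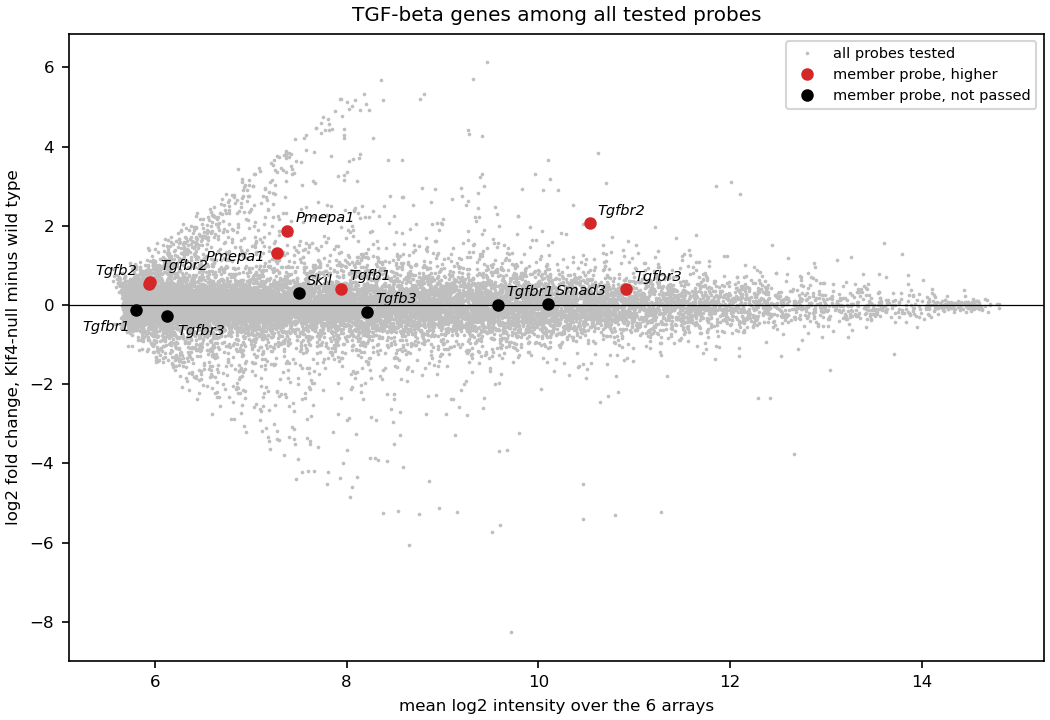
Log2 fold change (Klf4-null minus wild type) against mean log2 intensity over the 6 arrays for all 21825 tested probes (grey), with the 13 member probes in red (called higher) or black (not passed). The bright Tgfbr2 probe and both Pmepa1 probes lie at 1.32 to 2.07, and the other 10 member probes between -0.29 and 0.57.

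The remaining genes of the pathway were read by their brightest probe from lists chosen with earlier results of these data known. Genes of latency and activation hold TGF-beta in the matrix and release it. Of 15 tested, 11 rose, 0 fell (0 also at an unadjusted p under 0.05 by limma) and 4 did not pass, against 19.3% higher and 20.6% lower over all genes, with a median log2 fold change of 0.42. Itgb8 was above background on no wild-type array, so it entered through its Klf4-null arrays. Fibrillin-1 (Fbn1), the microfibril scaffold that anchors latent complexes, went from 336 ± 6.13 to 913 ± 31.9 (SD, n = 3), or 2.72-fold (log2 change 1.44, SE 0.07, adjusted p = 2.1e-09). Its dimmer probes ILMN_1252506 and ILMN_1256811 were also called higher, with smaller log2 changes of 0.41 and 0.26. The latent TGF-beta binding protein Ltbp1 rose 2.41-fold, from 914 ± 53.4 to 2201 ± 156 (adjusted p = 3.1e-08), with 0.23, 0.15 and -0.04 on its 3 dim tested probes, of which the first passed. Its remaining probes were too dim to be tested. Ltbp4 rose 1.85-fold, from 232 ± 36.8 to 426 ± 6.09 (adjusted p = 1.2e-05), with a log2 change of 0.29 on a dimmer called probe. The integrin subunit Itgb5, which with Itgav can bind latent TGF-beta, rose 2.24-fold on one probe and 1.75-fold on the other (adjusted p = 3.3e-06 and 0.0003). Probes disagreed for further genes of this list, named after their values were seen. Ltbp3 gave 0.39 on its brightest probe and -0.40 on ILMN_1220185, both called. Itgb1 gave 0.30 on its brightest probe and -0.33 on ILMN_2452582, both called. Itgav gave 0.41, called, and 0.04 on a dimmer probe that did not pass, and Thbs1 gave 0.02 on its brightest probe with 1.15 and 1.12 on its others. The Thbs1 probe at 1.15 was above background on no wild-type array, so it entered through its Klf4-null arrays.

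Of 8 tested activin-branch ligands and extracellular antagonists, 5 rose, 0 fell (0 also at an unadjusted p under 0.05 by limma) and 3 did not pass, against the same 19.3% and 20.6%, with a median log2 fold change of 0.31. The proteoglycan decorin (Dcn), which can bind TGF-beta in the matrix, rose 21.5-fold, from 133 ± 6.80 to 2843 ± 78.6 (SD, n = 3), and its other 4 probes rose with log2 fold changes from 0.37 to 3.68. Of these, ILMN_1254458 was above background on no wild-type array, so it entered through its Klf4-null arrays and had to differ. ILMN_2604695 was above background on 1 wild-type array. Lefty1, an antagonist of Nodal signalling, rose at least 3.95-fold from background on every wild-type array to 214 ± 15.5 (adjusted p = 4.7e-11), and so had to differ to be tested. Follistatin (Fst), which binds activin, rose 1.74-fold and its relative Fstl3 rose 1.27-fold (adjusted p = 8.3e-06 and 0.022). Fstl1, named after its values were seen, gave 0.27, called, and -0.05 on a dimmer probe that did not pass.

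Of 9 other receptors of the superfamily tested, 2 rose, 2 fell and 5 did not pass, shares near the 19.3% and 20.6% over all genes, with a median log2 fold change of 0.02. The activin type II receptor Acvr2b fell 2.14-fold, from 346 ± 26.0 to 162 ± 3.86 (SD, n = 3, adjusted p = 1e-07 by limma). The type I receptor Acvr1 rose 1.43-fold (adjusted p = 0.00012). Endoglin (Eng), a co-receptor abundant in endothelium, rose 1.57-fold (adjusted p = 4e-05). Endothelial markers moved as given above, and their part in this value was not tested. Cd109, a co-receptor that dampens TGF-beta signalling in keratinocytes, fell 1.35-fold on one probe and 1.24-fold on the other (adjusted p = 0.00051 and 0.011). Acvr1b gave 0.02 on its brightest probe but was called higher on ILMN_2740103 (1.01), and Amhr2 gave -0.01 and, on a dimmer called probe, 0.33. Both genes were named after their values were seen. The called Amhr2 probe was above background on no wild-type array, so it entered through its Klf4-null arrays, with a rise of at least 1.06-fold.

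Of 6 tested SMADs and partners of SMADs, 2 rose, 2 fell and 2 did not pass, where 19.3% of all genes were called higher and 20.6% lower. Smad2, which shares the role of Smad3 in relaying TGF-beta, fell 1.29-fold, from 310 ± 5.81 to 240 ± 11.4 (SD, n = 3, adjusted p = 0.0014 by limma). Smad1, which relays bone morphogenetic proteins, rose by 0.49 on the log2 scale on its brightest probe (adjusted p = 0.00025), but 2 dimmer probes did not pass (0.06 and -0.12). Jun, an AP-1 subunit, rose 1.29-fold and the coactivator Crebbp fell 1.35-fold (adjusted p = 0.0074 and 0.0015). Crebbp read 46.8, 57.7 and 55.1 in Klf4-null cells, above background on 2 of 3 arrays, so its fold is not exact. Smad4, Smad5 and Smad6 were not analysed here.

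Of 14 tested intracellular regulators, 1 rose, 2 fell and 11 did not pass, both shares below the 19.3% and 20.6% over all genes, with a median log2 fold change of 0.01. Smurf1, a ubiquitin ligase that can mark SMADs and receptors for degradation, fell 1.68-fold, from 273 ± 9.73 to 163 ± 6.57 (SD, n = 3), and 1.66-fold on its other probe (adjusted p = 2.9e-06 and 6e-05 by limma). The adaptor Dab2 fell 1.31-fold on its brightest probe (adjusted p = 0.0012) but gave -0.02 and 0.03 on its other 2. The deubiquitinase Usp4 rose 1.27-fold (adjusted p = 0.02). Ppm1a gave -0.13 on its brightest probe and -0.26, called lower, on a dimmer one. Ski, the relative of Skil, gave 0.09 (adjusted p = 0.60).

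Of 19 tested genes that TGF-beta commonly raises in fibroblasts, 10 rose, 4 fell and 5 did not pass, against 19.3% higher and 20.6% lower over all genes. The share that fell was near that over all genes, and the median log2 fold change was 0.40. Several had been picked out in earlier results of these data, so the count is not independent. Tgfbi, a secreted matrix protein, was at background on every wild-type array and rose at least 19.9-fold, while Col3a1 rose 5.65-fold and Ccn1 2.89-fold (adjusted p = 4.8e-14, 3.9e-11 and 5.1e-09 by limma). Tgfbi thus entered through its Klf4-null arrays alone on that probe. The cytokine Il11 fell from 160 ± 12.3 (SD, n = 3) to a level above background on 1 of 3 Klf4-null arrays (adjusted p = 2.5e-09), so no exact fold is given. The other genes that fell were Lox, Tgm2 and Col1a2, while Fn1, Acta2, Tagln, Cdkn1a and Snai1 did not pass on their brightest probes. A dimmer probe of Acta2 was called higher (0.48, adjusted p = 0.00098) and one of Cdkn1a lower (-0.47, adjusted p = 0.0017). Cnn1, Postn, Klf10 and Cdkn2b were too dim to be tested.

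**Figure D4:**
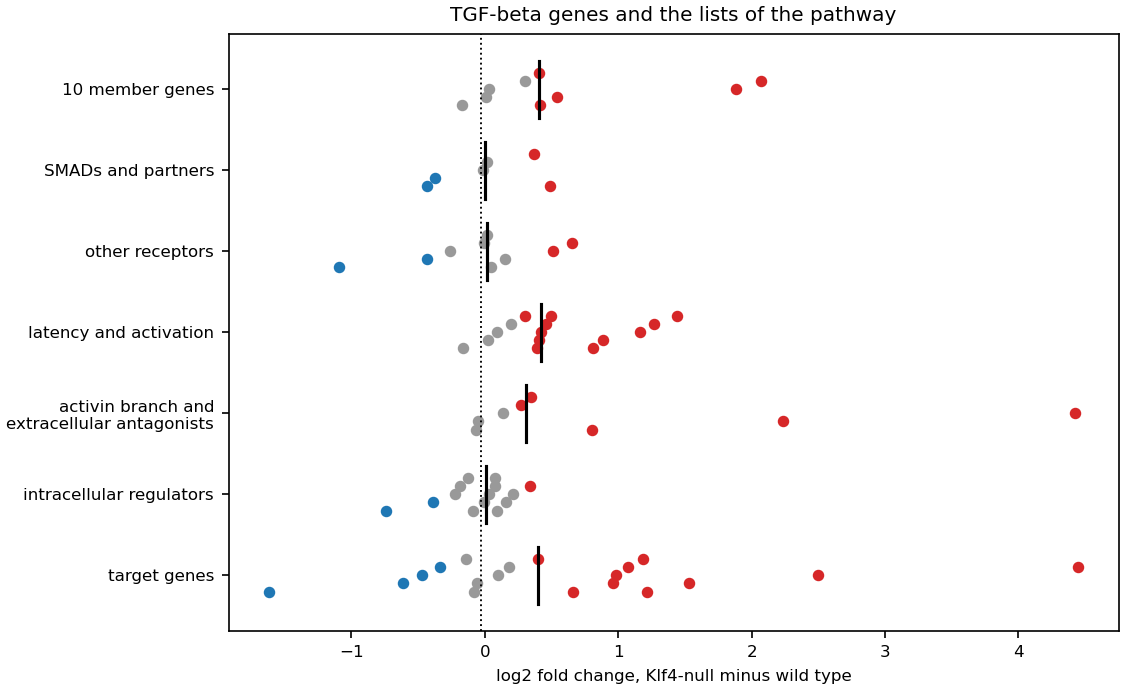
Log2 fold change (Klf4-null minus wild type) of each tested gene, by its brightest probe, for the 10 member genes (9 tested) and 6 lists of the pathway, red where called higher, blue where called lower and grey where the test was not passed. Black bars are list medians and the dotted line is the median of all genes, -0.03. Medians of the members, latency, activin-branch and target lists lie at 0.31 to 0.42, and those of the other 3 lists at 0.00 to 0.02.

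The member values were recomputed under other settings for filter, normalization, variance and replicates. The bright Tgfbr2 probe stayed between 1.99 and 2.12 on the log2 scale and Pmepa1 between 1.70 and 1.97 on its brighter probe and between 1.18 and 1.41 on the other. These 3 probes passed under every one of the 17 settings. A test against a change of 1.5-fold called these 3 and no other member probe.

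**Figure D5:**
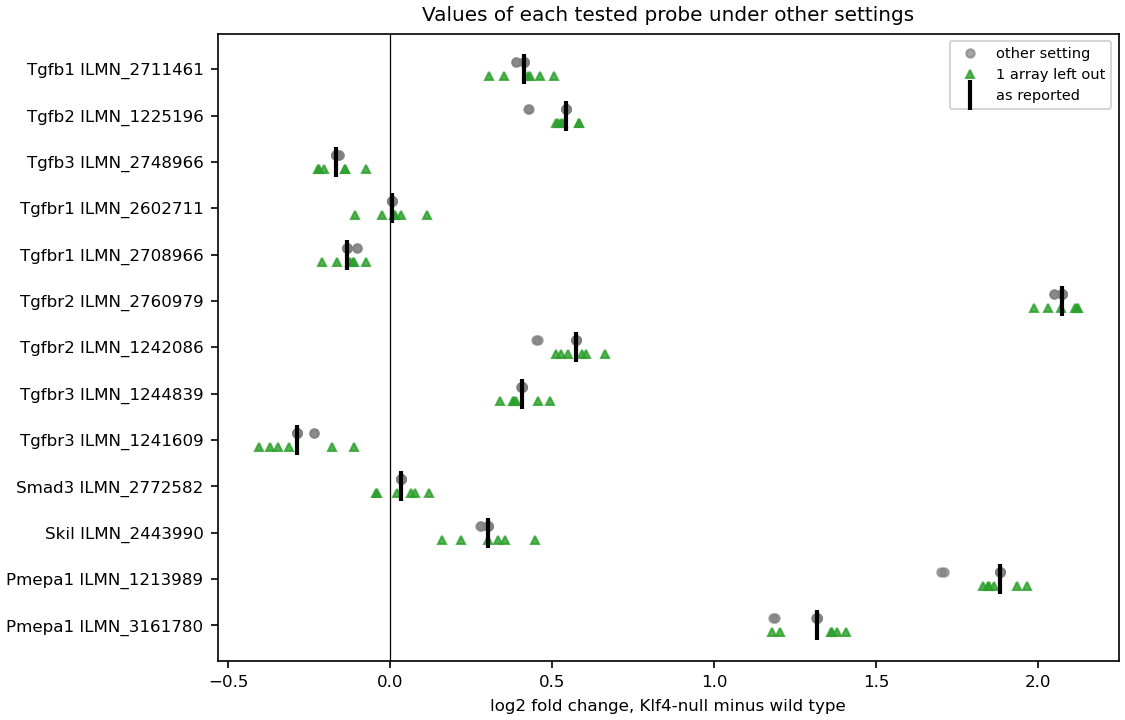
Log2 fold change (Klf4-null minus wild type) of each tested member probe as reported (black bar), with 1 array left out (green triangles) and under other settings (grey circles). The bright Tgfbr2 probe stays near 2, and the values of Tgfbr1 ILMN_2602711 and Smad3 fall on both sides of 0.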

How the data were processed

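The deposited table gave 1 normalized intensity per probe and sample for 46621 probes of an Illumina bead array. The values are linear, and array medians of 51.7 to 51.8 show that the authors deposited intensities already normalized between arrays. How this was done, the scanner software and the annotation build are not given in the sources used here. Another table of the series paired probes with gene symbols, and its 12 value columns, whose names match no sample, were not used. Symbols were updated through RefSeq names (GRCm38.p6).

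Log2 intensities of all 6 arrays were fitted with limma 3.58.1 (lmFit, eBayes) in R 4.3.3, with genotype as the sole term, and its 2-sided p-values were adjusted by Benjamini-Hochberg over the 21825 tested probes. The floor on each array was the 95th percentile of background, taken as the mode of the log2 values with the spread below it mirrored. "At least N-fold" sets the brighter group's mean against, per array of the dimmer group, its floor or signal, whichever was higher. The procedure was tested on simulated data. Alternatives changed the filter, the normalization, the variance model and the tested fold, blocked on replicate number, or left out 1 array. The 4 probes labelled Stag1, an older name that Pmepa1 shares with another gene, were not counted as members. Some listed genes are not reported here.

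All 10 members were named on every probe, with Klf4 and, from each list, up to 4 called genes of largest change whose groups did not overlap. Members and lists were chosen with earlier results of these data known. Replicate numbers were not taken to pair samples, since deviations of same-numbered arrays from their group means correlated at -0.02, 0.05 and -0.22. The number of arrays limits the precision.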

Additional observations from a re-analysis of the deposited data

How the results depend on the processing

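The count of member probes called higher was 7 of 13 and stayed between 5 and 8 under the alternatives, except the test against a change of 1.5-fold, which left 3. That test also left 1766 of the 8483 changed probes and 14 of the 41 changed genes of the pathway lists. Without sharing variance between probes, 6114 probes and 5 member probes were called. The number of member probes called lower was 0, or 0 to 1 when 1 array was left out, the exception being Tgfbr3 ILMN_1241609 without wild-type replicate 2. Leaving out 1 array gave 7174 to 8248 changed probes. With the replicate block, 8052 probes, 7 member probes and 41 list genes were called, and no call of a member probe changed. Signs turned for values near 0. With 1 array left out, Tgfbr1 ILMN_2602711 (0.01) ranged from -0.1107 to 0.1137 and Smad3 (0.03) from -0.0441 to 0.1179. By probe, Tgfbr1 ILMN_2708966 gave -0.13 and Tgfbr3 ILMN_1241609 gave -0.29, opposite to the brighter probes. The cause was not tested. Values near the floor limit what can be said of Tgfb2, Smad7 and the dim probes of Tgfbr1, Tgfbr2 and Skil.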
